A study of Homo sapiens with 8 samples.

Results

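Plasminogen activation was followed here through 7 genes, taken by name from the 28265 genes counted. PLAT and PLAU encode the tissue-type and urokinase-type plasminogen activators, PLAUR encodes the urokinase receptor, and SERPINE2, SERPINB2, SERPINF1 and SERPINH1 belong to the serpin family. An activator cleaves plasminogen, a circulating proenzyme, into plasmin, a protease that dissolves fibrin, acts on matrix proteins and activates some matrix metalloproteinases. Inhibitory serpins trap an activator by offering it a reactive loop as bait, whereas some serpins have lost inhibition and serve as chaperones or secreted signals. Fibroblasts secrete activators and inhibitors together.

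The RNA came from IMR90, a human fetal lung fibroblast line, at low passage, and was prepared by factory RNA-Seq, which enriches for transcripts still held in transcription factories. Of the 4 conditions, with 2 libraries each, the control is the low-passage culture labelled young, and the cultures of the next 2 conditions were exposed to inflachromene (ICM), a small molecule that binds HMGB1 and HMGB2, for 3 or for 6 days. The fourth carries the label MetaICM, which neither the labels nor the study's text explain beyond a low-passage culture with metaICM treatment, and no duration is given for it. Whether the control cultures received solvent is not given in the sources used here, and the labels state poly(A) selection, so mature transcripts may be part of what was counted. The counts are of read pairs on exons, so a level is that of exonic RNA, and fewer cells expressing a gene cannot be told apart from less RNA per cell.

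The libraries held 12095123 to 23166405 counted pairs, with a median of 18642269. Levels are given as CPM (counts scaled to a common library size) after TMM scaling, and as RPKM (the same per kilobase of exon) wherever genes are compared with each other. The 2 control libraries lay farther apart than those of any other condition, and for 6 of the 7 genes control replicate 1 was the higher, by 1.37-fold for SERPINE2 to 2.14-fold for SERPINB2. The fibroblast markers were present in every library, but their summed level moved with the conditions, from 23271 to 23435 CPM in control to 13058 to 14441 CPM at 3 days, 11056 to 11426 CPM at 6 days and 20405 to 21293 CPM in MetaICM. Epithelial and immune markers were low (epithelial, 1.61 to 6.21 CPM summed over 7 genes, and immune, 2.86 to 4.35 CPM over 7 genes, with CD3E at 0 counts). The 6 endothelial markers summed to 186 to 195 CPM in control, 131 to 134 CPM at 3 days, 165 to 198 CPM at 6 days and 221 to 234 CPM in MetaICM, although PECAM1, CDH5 and TIE1 among them stayed under 1 CPM. The smooth muscle markers, some of which fibroblasts express, summed to 654 to 759 CPM in control, 144 to 151 CPM at 3 days, 112 to 128 CPM at 6 days and 477 to 510 CPM in MetaICM. The part of these shifts in the results below was not tested.

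Calls rest on edgeR's quasi-likelihood test in a fit of the 2 conditions compared. A gene counts as differentially expressed, or called, where the p-value, adjusted over all genes tested by Benjamini-Hochberg, is under 0.05 and the absolute log2FC exceeds 0.6. All 7 genes passed the filter on low counts in all 6 comparisons. The labels do not say that the libraries of a condition came from separate cultures, so p-values measure the spread between these libraries, which may be technical. The 3 comparisons against control share the same control libraries.

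After 3 days of ICM, SERPINE2 and SERPINB2 rose and SERPINF1 and SERPINH1 fell, while neither activator was differentially expressed. That is 2 of 7 genes higher against 8.85% of all tested genes, and 2 of 7 lower against 13.2%. By 6 days, PLAT, SERPINB2 and SERPINE2 were higher (3 of 7, against 13.3% of all genes) and SERPINF1 was lower (1 of 7, against 17.2%). Between 3 and 6 days, PLAT and SERPINB2 rose and SERPINE2 fell (2 of 7 higher against 3.53% of all genes, 1 of 7 lower against 4.54%).

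In MetaICM, PLAT was again above control and SERPINB2 and SERPINF1 were below it, which is 1 of 7 genes higher against 7.41% of all genes and 2 of 7 lower against 8.99%. Set against 6 days of ICM, MetaICM held more PLAU, PLAUR and SERPINF1 and less PLAT and SERPINB2 (3 of 7 higher against 15.7% of all genes, 2 of 7 lower against 12%). Set against 3 days, it held more PLAT, PLAU, PLAUR and SERPINH1 and less SERPINE2 and SERPINB2 (4 of 7 higher against 13.1% of all genes, 2 of 7 lower against 10.3%). PLAU and PLAUR had the same calls over the 6 comparisons, and the other 5 genes each had their own set.

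**Figure D1:**
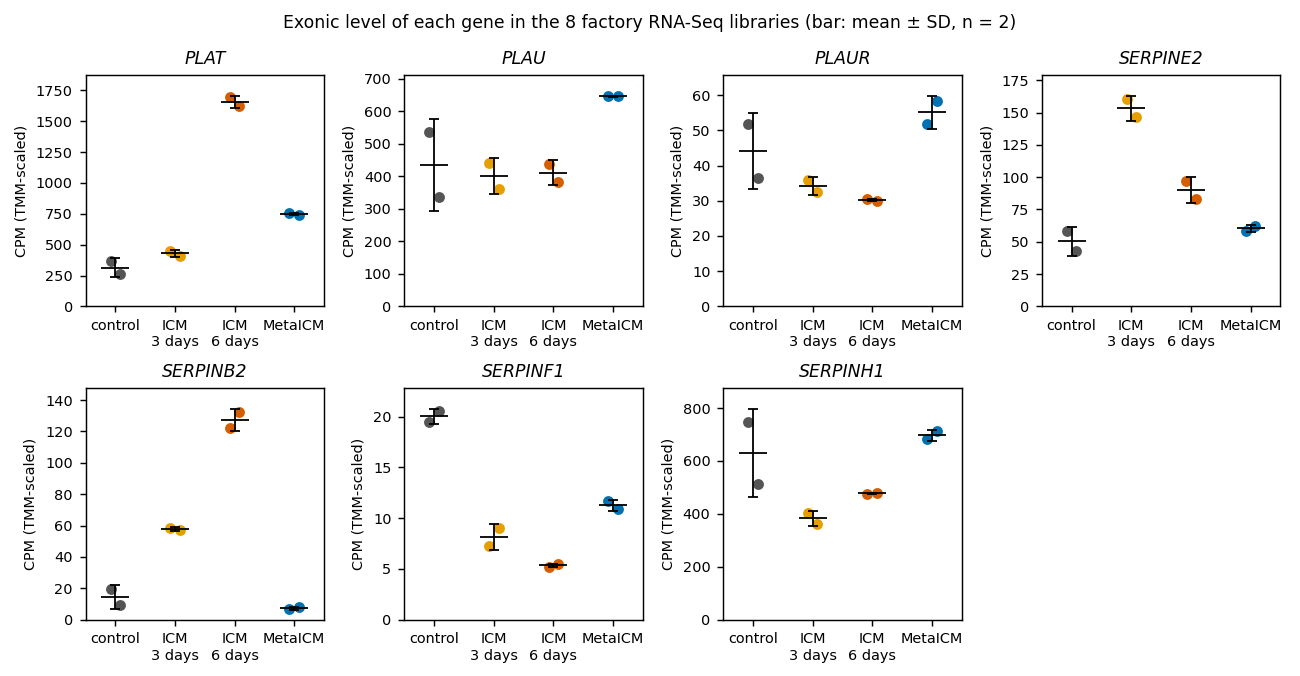
Level of each gene (CPM, TMM-scaled, linear axis from 0) in the 2 libraries of each condition, with the mean and SD (n = 2) as a horizontal bar and whiskers. PLAT and SERPINB2 stand highest at 6 days of ICM, SERPINE2 at 3 days and SERPINF1 in control, and the control libraries lie far apart for PLAU, PLAUR and SERPINH1.

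PLAT, tissue-type plasminogen activator, works mainly on fibrin-bound plasminogen and lies on chromosome 8 (GRCh37 42032236 to 42065083, minus strand). It read 367 and 260.0 CPM in the control libraries, 449.9 and 408 CPM at 3 days, 1692 and 1619.7 CPM at 6 days, and 756 and 742 CPM in MetaICM. All 4 conditions were separated without overlap, in the order control, 3 days, MetaICM and 6 days. The difference at 3 days stayed short of the cutoff (log2FC 0.45 ± 0.16 (SE), edgeR's adjusted p = 0.0498), and it passed when control replicate 1 was left out (log2FC 0.72). At 6 days PLAT was 5.27-fold above control (log2FC 2.40 ± 0.16, edgeR's adjusted p = 1.57e-06). Most of that rise fell between the time points, since 6 days exceeded 3 days by 3.85-fold (log2FC 1.94 ± 0.09, adjusted p = 5.07e-11). MetaICM was intermediate, at 2.38-fold above control (log2FC 1.25 ± 0.16, adjusted p = 0.000654), 1.75-fold above 3 days (adjusted p = 3.25e-06) and 2.21-fold below 6 days (log2FC -1.14 ± 0.08, adjusted p = 7.59e-11).

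PLAU, urokinase, works at the cell surface and lies on chromosome 10 (GRCh37 75670859 to 75677258, plus strand). It read 535 and 335 CPM in control, 440.4 and 361 CPM at 3 days, 438 and 384 CPM at 6 days, and 647 and 645 CPM in MetaICM. The libraries at 3 and 6 days fell inside the span of the 2 control libraries, and MetaICM lay above all others. No difference was called at 3 days (log2FC -0.12 ± 0.19) or at 6 days (log2FC -0.09 ± 0.18), and the sign of both turned positive when control replicate 1 was left out (0.26 and 0.28) or when the replicate 2 of the treated group was left out (0.04 and 0.01). MetaICM exceeded 6 days by 1.57-fold (log2FC 0.65 ± 0.08, edgeR's adjusted p = 4.48e-07) and 3 days by 1.62-fold (log2FC 0.69 ± 0.10, adjusted p = 5.16e-05). Each of those log2FC fell under the cutoff without replicate 2 of the ICM condition, to 0.56 and 0.55. Against control, the MetaICM log2FC of 0.57 ± 0.18 (adjusted p = 0.0431) was just under the cutoff, and it was 0.95 without control replicate 1. The exons of PLAU share 851 bases with C10orf55 on the opposite strand, and the counting ignored strand. Pairs that fit both genes there were left out, which lowers the level of PLAU. C10orf55 itself read 10.6 to 13.8 CPM on average in the 4 conditions.

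PLAUR, the receptor that holds urokinase at the cell surface, lies on chromosome 19 (GRCh37 44150247 to 44174498, minus strand). It read 51.9 and 36.5 CPM in control, 35.9 and 32.4 CPM at 3 days, 30.5 and 30.0 CPM at 6 days, and 51.7 and 58.5 CPM in MetaICM. Both ICM time points lay below both control libraries, with differences that were not called (log2FC -0.38 ± 0.17 at 3 days, and -0.55 ± 0.16 with edgeR's adjusted p = 0.0197 at 6 days). Without control replicate 2, each passed the cutoff, at -0.62 and -0.78. MetaICM was not distinguishable from control (log2FC 0.31 ± 0.16, adjusted p = 0.173) but exceeded 6 days by 1.82-fold (log2FC 0.87 ± 0.09, adjusted p = 2.95e-08) and 3 days by 1.62-fold (log2FC 0.69 ± 0.10, adjusted p = 7.82e-05). The last value was 0.595 without MetaICM replicate 2, under the cutoff.

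Promoter windows were available for 5 of the 7 genes, without PLAT and SERPINF1, as 8 windows from 250 bases before to 50 bases after a RefSeq start in GRCh38.p14, a build whose coordinates differ from those of the counts. They were searched on both strands for the AP-1 site TGANTCA, the cAMP element TGACGTCA, heat shock elements (GAANNTTC and TTCNNGAA, which can overlap each other), the E-box CACGTG, the TATA box TATAAA and CCAAT. A match is a description of letters only. The windows of PLAUR and SERPINB2, which differed in opposite directions between MetaICM and 6 days of ICM, are those with the AP-1 letters, which 7.71% of 35116 promoters hold. The PLAUR window, chr19:43670120-43670419 (minus strand), is shown with its AP-1 match in capitals, at -186 from the start, and holds no TATAAA.
PLAUR: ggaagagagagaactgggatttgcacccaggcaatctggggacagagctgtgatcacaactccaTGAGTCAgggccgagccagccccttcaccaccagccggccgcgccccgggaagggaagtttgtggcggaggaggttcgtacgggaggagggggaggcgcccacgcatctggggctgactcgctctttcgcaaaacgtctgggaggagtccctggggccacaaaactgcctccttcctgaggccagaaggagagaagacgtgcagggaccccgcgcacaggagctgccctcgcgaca

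SERPINE2 encodes protease nexin, a secreted and matrix-bound inhibitor of thrombin, urokinase and tissue-type activator, and lies on chromosome 2 (GRCh37 224839762 to 224904036, minus strand). It read 58.2 and 42.6 CPM in control, 160.2 and 146 CPM at 3 days, 97.4 and 82.7 CPM at 6 days, and 58.6 and 62.3 CPM in MetaICM. The 3-day libraries were the highest and the 6-day libraries came next, while MetaICM lay just above the higher control library. SERPINE2 rose 3.03-fold at 3 days (log2FC 1.598 ± 0.156, edgeR's adjusted p = 1.07e-05) and was still 1.78-fold above control at 6 days (log2FC 0.83 ± 0.16, adjusted p = 0.00184). From 3 to 6 days it fell by 0.77 ± 0.10 on the log2 scale (adjusted p = 1.72e-05), the reverse of PLAT and SERPINB2 over the same interval. MetaICM did not differ detectably from control (log2FC 0.25 ± 0.15, adjusted p = 0.224) and was 2.53-fold below 3 days (log2FC -1.34 ± 0.09, adjusted p = 1.88e-08). Below 6 days, its log2FC of -0.57 ± 0.08 (adjusted p = 5.83e-06) fell short of the cutoff, and it passed at -0.62 without MetaICM replicate 2 and at -0.69 without replicate 2 of the 6-day condition.

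SERPINE2 has 2 windows. The downstream start carries 7 matches to CCAAT or its complement, against 34.6% of promoters with any match and 8 of 35116 with at least 7 and the 7 alternate in orientation. It also holds an E-box, which 7.26% of promoters hold. That window, chr2:224031429-224031728 (minus strand), is printed with the CCAAT matches in capitals.
SERPINE2: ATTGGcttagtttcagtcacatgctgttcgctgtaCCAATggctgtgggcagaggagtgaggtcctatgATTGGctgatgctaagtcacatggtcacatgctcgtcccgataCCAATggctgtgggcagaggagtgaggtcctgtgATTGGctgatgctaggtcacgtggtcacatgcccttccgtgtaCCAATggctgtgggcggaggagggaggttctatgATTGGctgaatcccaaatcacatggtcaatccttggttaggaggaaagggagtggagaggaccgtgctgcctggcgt

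SERPINB2 encodes PAI2, an inhibitor of urokinase that is largely kept inside the cell, and lies on chromosome 18 (GRCh37 61554939 to 61571124, plus strand). It read 19.9 and 9.28 CPM in control, 58.6 and 57.1 CPM at 3 days, 122 and 132 CPM at 6 days, and 6.54 and 8.08 CPM in MetaICM. No 2 conditions overlapped, and MetaICM was the lowest. SERPINB2 rose 3.90-fold at 3 days (log2FC 1.96 ± 0.25, edgeR's adjusted p = 9.79e-05) and 8.55-fold at 6 days (log2FC 3.10 ± 0.25, adjusted p = 6.53e-06), with 2.19-fold gained between the time points (log2FC 1.13 ± 0.09, adjusted p = 5.96e-08). The sizes against control depended on the control library used, at 6.23-fold and 13.6-fold without control replicate 1 and at 2.87-fold and 6.41-fold without control replicate 2. MetaICM stood 17.3-fold below 6 days (log2FC -4.11 ± 0.10, adjusted p = 4.52e-18) and 7.86-fold below 3 days (log2FC -2.97 ± 0.12, adjusted p = 1.53e-10). Its difference from control (log2FC -1.02 ± 0.29, adjusted p = 0.0275) was not called without control replicate 1 (log2FC -0.34, adjusted p = 0.165) or without MetaICM replicate 1 (log2FC -0.84, adjusted p = 0.0887).

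The SERPINB2 window, chr18:63887455-63887754 (plus strand), shows in capitals the AP-1 match at -102 and the TATA box at -30. TATA boxes of these letters are in 11.5% of promoters and in none of the other windows of the 7 genes.
SERPINB2: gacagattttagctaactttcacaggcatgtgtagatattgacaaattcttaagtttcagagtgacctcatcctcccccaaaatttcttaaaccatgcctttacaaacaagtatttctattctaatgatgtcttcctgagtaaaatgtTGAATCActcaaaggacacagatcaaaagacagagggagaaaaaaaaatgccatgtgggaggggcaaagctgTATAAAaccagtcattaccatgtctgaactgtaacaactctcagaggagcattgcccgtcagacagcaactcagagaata

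SERPINB2 sits in a cluster of related serpin genes, most of which were silent here. SERPINB5, SERPINB12, SERPINB13, SERPINB4, SERPINB3, SERPINB11 and SERPINB10 had at most 2 counts in any library, although SERPINB10 starts 20.3 kb from SERPINB2. SERPINB7, which starts 135 kb upstream, was called higher at 3 days (log2FC 0.93 ± 0.26, edgeR's adjusted p = 0.0172) and in MetaICM (log2FC 1.32 ± 0.24, adjusted p = 0.00387), where SERPINB2 was low. The 3-day call was lost without replicate 1 of that condition (log2FC 0.82, adjusted p = 0.118) or without control replicate 2 (log2FC 0.69, adjusted p = 0.0590). SERPINB8, 82.3 kb downstream, was not called against control at either time point (log2FC 0.14 and 0.19). In MetaICM it was lower than control by a log2FC under the cutoff (-0.43 ± 0.14, edgeR's adjusted p = 0.0380). Against 6 days it was called lower (-0.63 ± 0.10, adjusted p = 2.59e-05), the direction of SERPINB2.

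SERPINF1 encodes PEDF, a secreted serpin without protease inhibition that binds collagen and restrains vessel growth, and lies on chromosome 17 (GRCh37 1665219 to 1680868, plus strand). It read 19.5 and 20.5 CPM in control, 7.22 and 9.04 CPM at 3 days, 5.21 and 5.48 CPM at 6 days, and 11.6 and 10.9 CPM in MetaICM. The conditions were separated without overlap, with control on top, and here the control libraries lay close together. SERPINF1 fell 2.48-fold at 3 days (log2FC -1.31 ± 0.18, edgeR's adjusted p = 0.000215) and 3.75-fold at 6 days (log2FC -1.91 ± 0.16, adjusted p = 9.80e-06). The step from 3 to 6 days, a log2FC of -0.597 ± 0.192 (adjusted p = 0.0352), ended just inside the cutoff and was -0.76 without replicate 1 of the 3-day condition. MetaICM was 1.78-fold below control (log2FC -0.83 ± 0.14, adjusted p = 0.00319) and 2.10-fold above 6 days (log2FC 1.07 ± 0.15, adjusted p = 4.58e-06). The former was not called without MetaICM replicate 2 (log2FC -0.77, adjusted p = 0.0653). Above 3 days, MetaICM differed by a log2FC of 0.49 ± 0.16 (adjusted p = 0.0254), which was under the cutoff and reached 0.64 without replicate 2 of the 3-day condition. SERPINF2, which encodes the plasmin inhibitor and starts 19.1 kb from SERPINF1, had at most 9 counts in any library.

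SERPINH1 encodes HSP47, a chaperone of procollagen in the endoplasmic reticulum and likewise no protease inhibitor, and lies on chromosome 11 (GRCh37 75273298 to 75283856, plus strand). It read 748 and 514 CPM in control, 403 and 363 CPM at 3 days, 475 and 479.5 CPM at 6 days, and 682 and 712 CPM in MetaICM. Both ICM conditions lay below both control libraries, and MetaICM fell inside the control span. SERPINH1 fell 1.65-fold at 3 days (log2FC -0.72 ± 0.17, edgeR's adjusted p = 0.00648). That call was lost without control replicate 1 (log2FC -0.43, adjusted p = 0.00368) and without replicate 2 of the 3-day condition (log2FC -0.63, adjusted p = 0.0554). At 6 days the log2FC was -0.41 ± 0.16 (adjusted p = 0.0600), and -0.65 without control replicate 2, which would pass. The levels of 6 days exceeded those of 3 days by a log2FC of 0.31 ± 0.09 (adjusted p = 0.0168), under the cutoff. MetaICM was 1.83-fold above 3 days (log2FC 0.87 ± 0.09, adjusted p = 1.72e-06), with a log2FC of 0.55 ± 0.07 over 6 days (adjusted p = 2.22e-06) and of 0.14 ± 0.16 over control that was not called. The last turned to -0.10 without control replicate 2.

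The SERPINH1 window at the upstream of 2 starts, chr11:75562003-75562302 (plus strand), holds both kinds of heat shock element, at -76 and -71, sharing 3 bases, a pair that 172 of 35116 promoters (0.490%) hold in this overlap. They are in capitals.
SERPINH1: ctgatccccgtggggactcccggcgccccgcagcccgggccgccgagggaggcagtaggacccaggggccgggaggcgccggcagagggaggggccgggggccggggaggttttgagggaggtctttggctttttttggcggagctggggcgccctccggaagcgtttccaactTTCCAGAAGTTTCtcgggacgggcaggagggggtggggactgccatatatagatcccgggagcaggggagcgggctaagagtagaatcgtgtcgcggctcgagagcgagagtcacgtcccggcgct

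Of 13 genes of the heat shock response, among which SERPINH1 is usually counted, none was called higher at 3 days, against 8.85% of all genes. HSP90AA1, a cytosolic chaperone, was lower (log2FC -0.62 ± 0.13, edgeR's adjusted p = 0.00377), which is 7.69% of the list against 13.2% of all genes. That call was lost without replicate 1 of the 3-day condition (log2FC -0.53, adjusted p = 0.102) and with library totals in place of TMM (log2FC -0.54). At 6 days BAG3, a co-chaperone (log2FC 0.85 ± 0.12), and HSPA1B, an inducible HSP70 gene (log2FC 0.61 ± 0.14, or 0.51 without control replicate 2 and 0.55 without replicate 2 of the 6-day condition, both under the call), were higher. They are 15.4% of the list, against 13.3% of all genes, and none was lower, against 17.2%. In MetaICM, HSPB1, a small heat shock protein, was higher (log2FC 1.11 ± 0.15, edgeR's adjusted p = 0.000950) and no other gene of the list was called. That is 7.69% higher against 7.41% of all genes, and none lower against 8.99%. The medians of the list were 0.08, 0.18 and 0.30 on the log2 scale at 3 days, 6 days and in MetaICM, against 0.00945, -0.00129 and -0.00112 over all genes tested.

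**Figure D2:**
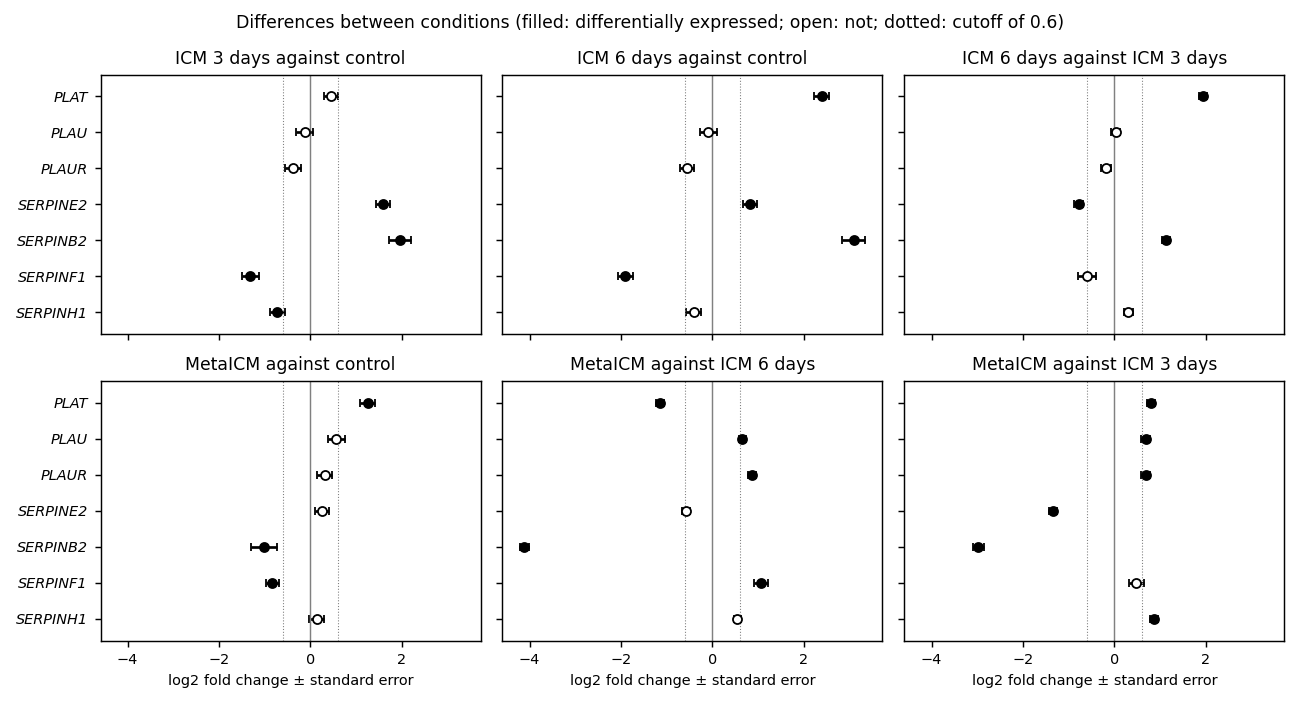
Log2FC with its standard error for the 7 genes in the 6 comparisons (4 libraries each), where filled circles mark differentially expressed genes, open circles the others, and dotted lines the cutoff of 0.6. SERPINB2 runs from 3.10 at 6 days against control to -4.11 in MetaICM against 6 days, and PLAU lies near 0 in every comparison without MetaICM.

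Per length of exon, SERPINH1 was the most abundant of the 7 in control (296 ± 77.8 RPKM, SD, n = 2), at 3 days (179.7 ± 13.2 RPKM) and in MetaICM (327 ± 9.91 RPKM). At 6 days PLAT took that place, at 541 ± 16.7 RPKM. The least abundant gene was SERPINB2 in control (6.73 ± 3.46 RPKM) and MetaICM (3.37 ± 0.50 RPKM), and SERPINF1 at 3 days (4.36 ± 0.69 RPKM) and 6 days (2.87 ± 0.10 RPKM). In control, PLAUR (22.1 ± 5.46 RPKM) and SERPINE2 (16.5 ± 3.63 RPKM) overlapped between their libraries, as did PLAT and PLAU at 3 days, and no other neighbours in these orders overlapped. PLAU may stand too low in these orders, since pairs in the exon bases it shares with C10orf55 were left out.

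Within the 2 activator genes, PLAT supplied 37.6% and 40.5% of the summed RPKM in the control libraries, 47.3% and 49.9% at 3 days, 77.3% and 78.8% at 6 days, and 50.7% and 50.3% in MetaICM. By these values the activators were near parity at 3 days and in MetaICM, with PLAU ahead in control and PLAT at 6 days. The RPKM of PLAU used its full exon length of 2693 bases, although pairs in the 851 bases shared with C10orf55 were left out. The share of PLAU may therefore be understated, and which activator led at 3 days and in MetaICM is not settled. Of the summed RPKM of the 2 inhibitor genes among the 7, SERPINE2 and SERPINB2, the latter supplied 32.5% and 23.5% in control, 34.0% and 35.5% at 3 days, 63.9% and 69.3% at 6 days, and 13.6% and 15.5% in MetaICM. SERPINB2 was the larger of the pair at 6 days, and SERPINE2 was the larger in the other 3 conditions. The sum itself was 28.3 and 18.2 RPKM in control, 79.6 and 74.3 RPKM at 3 days, 88.4 and 88.2 RPKM at 6 days, and 22.2 and 24.1 RPKM in MetaICM. Per summed activator level, that was 0.0887 and 0.0871 in control, 0.256 and 0.278 at 3 days, 0.124 and 0.131 at 6 days, and 0.0456 and 0.0501 in MetaICM. The ratio was highest at 3 days, where the inhibitors had risen and PLAT had not been called. These shares and ratios are of exonic RNA of these genes alone, they say nothing of protein or activity, and with 2 libraries against 2 they were given no test.

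**Figure D3:**
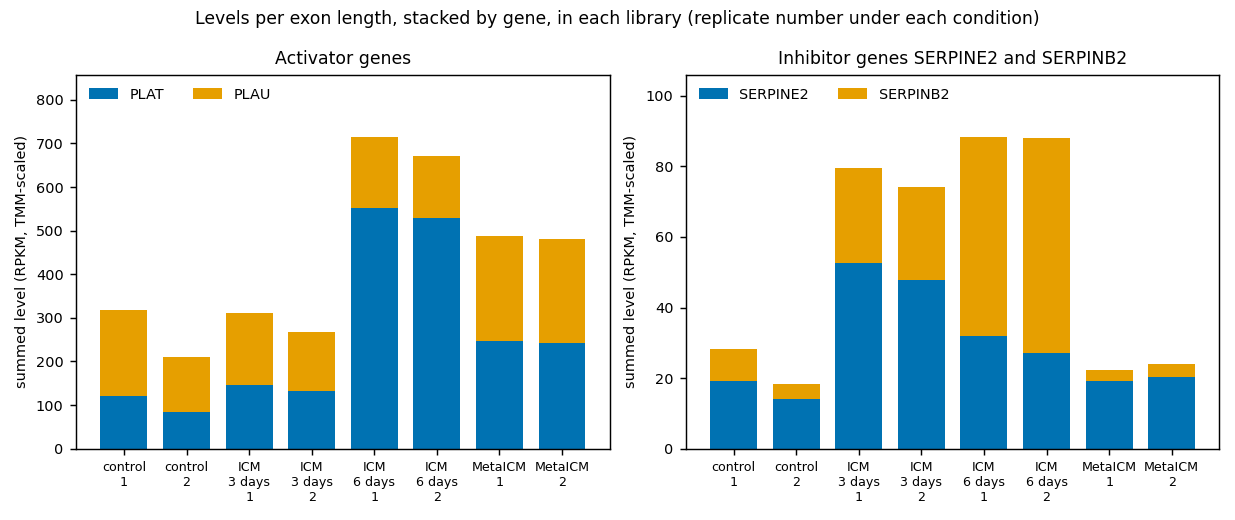
Levels per length of exon (RPKM, TMM-scaled) in each of the 8 libraries, stacked for the 2 activator genes (left) and for the inhibitor genes SERPINE2 and SERPINB2 (right), on axes of different height that start at 0. The 6-day libraries hold the tallest activator bars, mostly PLAT, and the inhibitor bars are tall at 3 days, mostly SERPINE2, and at 6 days, mostly SERPINB2.

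RNA of the activators' substrate was not detectable at this depth. PLG, which encodes plasminogen and is made mainly by the liver, had 1 count in 3 libraries and 0 in the other 5, and 0 counts allow up to 3 counts, or 0.130 to 0.249 CPM, by counting error alone. Of 27 further genes of the plasminogen system, 16, 18 and 17 passed the filter at 3 days, 6 days and in MetaICM. At 3 days 4 were higher and 2 lower (25.0% and 12.5%, against 8.85% and 13.2% of all genes). At 6 days 4 were higher and 3 lower (22.2% and 16.7%, against 13.3% and 17.2%). In MetaICM 3 were higher and 1 lower (17.6% and 5.88%, against 7.41% and 8.99%). The medians of the list were -0.08, 0.02 and 0.31 on the log2 scale, against 0.00945, -0.00129 and -0.00112 over all genes tested.

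TFPI2 and TFPI, Kunitz-type inhibitors of which the former also acts on plasmin, rose with ICM (TFPI2 log2FC 1.92 ± 0.17 at 3 days and 1.83 ± 0.17 at 6 days, TFPI 0.84 ± 0.12 and 1.64 ± 0.11). ENO1, a glycolytic enzyme that also binds plasminogen at the cell surface, was higher at both times (log2FC 0.81 ± 0.16 and 0.63 ± 0.15), with values under the cutoff without control replicate 2 (0.58 and 0.42) and, at 6 days, without replicate 2 of that condition (0.59). A2M, a broad protease trap, was lower at both times (log2FC -1.59 ± 0.16 and -1.07 ± 0.15). ITGA3, an integrin subunit that can associate with the urokinase receptor, was lower with ICM (log2FC -0.79 ± 0.17 and -1.11 ± 0.17) and higher in MetaICM (log2FC 0.85 ± 0.18). The 3-day and MetaICM calls of ITGA3 each hung on a control library, with -0.44 without control replicate 1 and 0.58 without control replicate 2.

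Of 32 other serpin genes, 8, 9 and 9 passed the filter at 3 days, 6 days and in MetaICM. At 3 days 2 were higher (25.0%, against 8.85% of all genes) and none lower (against 13.2%). At 6 days 2 were higher and 1 lower (22.2% and 11.1%, against 13.3% and 17.2%). In MetaICM 2 were higher and 1 lower (22.2% and 11.1%, against 7.41% and 8.99%). The medians were 0.17, 0.37 and 0.04 on the log2 scale. SERPINB1, an intracellular inhibitor of neutrophil proteases, was higher at both ICM times (log2FC 0.90 ± 0.15 and 1.01 ± 0.13). SERPING1, the complement C1 inhibitor, was lower at 6 days (log2FC -1.09 ± 0.24) and in MetaICM (log2FC -1.01 ± 0.24, with an adjusted p in edgeR of 0.0803 without MetaICM replicate 1 and a log2FC of -0.66 without control replicate 2). SERPINI1, neuroserpin, an inhibitor of tissue-type activator, was called higher at 6 days (log2FC 1.36 ± 0.43, edgeR's adjusted p = 0.0279) and in MetaICM (log2FC 1.38 ± 0.44, adjusted p = 0.0428) from levels of at most 1.26 CPM. Its 6-day call was lost when any library was left out (adjusted p of 0.0604 to 0.204) and with DESeq2 (adjusted p = 0.164), and its MetaICM call when either MetaICM library (adjusted p of 0.130 and 0.372) or control replicate 2 (adjusted p = 0.0890) was left out.

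Plasmin acts on matrix proteins and on the proenzymes of metalloproteinases, and 20 of 21 genes listed for such substrates and targets passed the filter. At 3 days 6 of the 20 were higher and 3 of the 20 lower, against 8.85% and 13.2% of all genes. At 6 days 5 of the 20 were higher and 5 of the 20 lower, against 13.3% and 17.2%. In MetaICM 2 of the 20 were higher and 3 of the 20 lower, against 7.41% and 8.99%. The medians were 0.10, -0.21 and -0.11 on the log2 scale. The 3 metalloproteinases with large rises were MMP3 (log2FC 5.49 ± 0.24 at 3 days and 5.51 ± 0.23 at 6 days), MMP10 (5.42 ± 0.27 and 4.64 ± 0.27) and MMP1 (3.91 ± 0.23 and 2.87 ± 0.22). Without control replicate 1 the log2FC values of MMP10 were 6.43 and 5.63. None of the 3 was called in MetaICM, where their means were 18.0, 1.28 and 43.6 CPM against 12.4, 1.41 and 58.8 CPM in control. Other metalloproteinases of the list fell, with MMP2 lower at 6 days (log2FC -0.93 ± 0.13) and in MetaICM (-1.09 ± 0.12). MMP14 was lower at 3 and 6 days (-0.62 ± 0.17 and -0.78 ± 0.16). FN1, fibronectin, was lower in all 3 conditions (log2FC -1.35 ± 0.15, -1.78 ± 0.14 and -1.12 ± 0.20). PDGFD, a growth factor that urokinase can activate, was higher at 3 and 6 days (log2FC 0.75 ± 0.14 and 1.34 ± 0.13) and lower in MetaICM (log2FC -0.73 ± 0.14, with an adjusted p in edgeR of 0.113 without MetaICM replicate 2). F3, tissue factor, was higher in all 3 (log2FC 1.11 ± 0.13, 1.15 ± 0.12 and 0.80 ± 0.13).

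Of 27 tested genes of collagen folding and maturation, the process that SERPINH1 serves, 4 were higher and 7 lower at 3 days. Those are 14.8% and 25.9%, against 8.85% and 13.2% of all genes. At 6 days 6 were higher and 6 lower (22.2% for each, against 13.3% and 17.2%). In MetaICM 5 were higher and 1 lower (18.5% and 3.70%, against 7.41% and 8.99%). The medians were -0.14, 0.21 and 0.31 on the log2 scale. PLOD2, a lysyl hydroxylase that sets the type of collagen crosslink, rose (log2FC 2.32 ± 0.15 at 3 days and 2.66 ± 0.15 at 6 days) and so did P4HA1, a prolyl hydroxylase subunit (1.19 ± 0.13 and 1.24 ± 0.12), whereas SERPINH1 fell at 3 days. Of the enzymes that trim procollagen ends, ADAMTS14 rose (0.86 ± 0.16 and 1.44 ± 0.14). ADAMTS2 (-1.22 ± 0.14 and -1.57 ± 0.13), BMP1 (-0.67 ± 0.13 and -0.79 ± 0.11) and ADAMTS3 (-1.02 ± 0.22 and -0.61 ± 0.19) fell. PCOLCE, an enhancer of such trimming, fell by 1.11 ± 0.16 and by 2.49 ± 0.16 on the log2 scale. LOXL1, a crosslinking oxidase, was lower with ICM (-1.28 ± 0.15 and -1.17 ± 0.13) and higher in MetaICM (0.65 ± 0.11, with an adjusted p in edgeR of 0.0723 without MetaICM replicate 2).

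**Figure D4:**
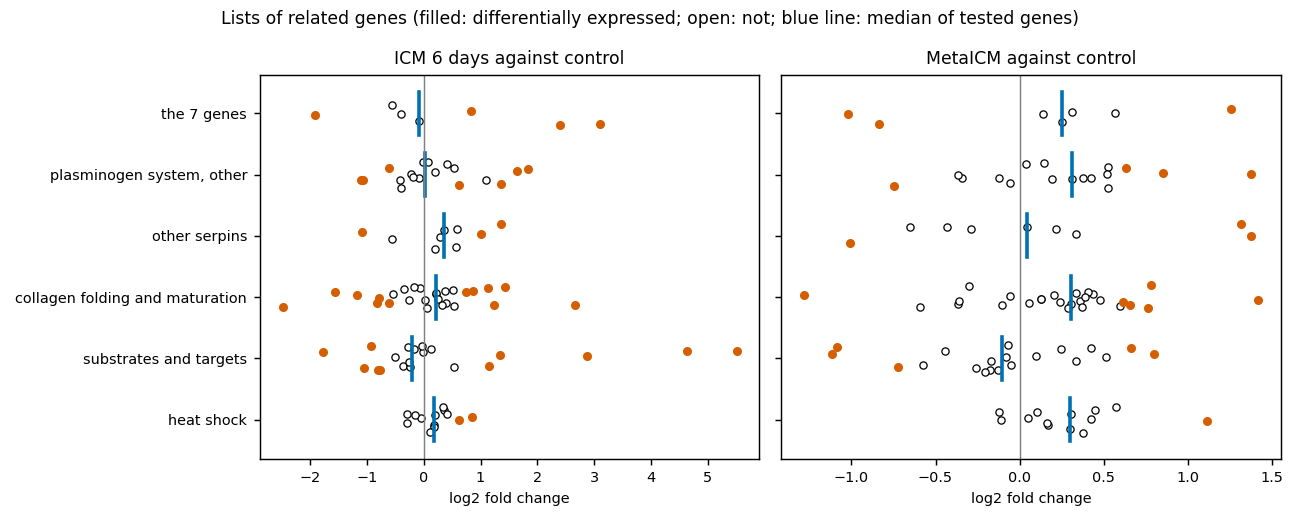
Log2FC of every tested gene of the 5 lists and of the 7 genes at 6 days of ICM (left) and in MetaICM (right), each against control, on different horizontal scales. Filled points are differentially expressed, open points are not, and blue lines are medians; each list spreads to both sides of 0 at 6 days, and MMP3, MMP10 and MMP1 form the far right of the substrates at 6 days.

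Across the 8 libraries the 7 genes moved in different ways, given here as a description, since the libraries share 4 conditions and their depth. PLAUR ran with SERPINH1 (Pearson's r = 0.87 of log2(CPM + 1)) and PLAU (r = 0.86), and against SERPINB2 (r = -0.83). PLAT and PLAU were nearly unrelated (r = 0.18), and PLAT ran against SERPINF1 (r = -0.80). Among 11160 genes with a mean of at least 5 CPM, the closest in profile to each member over the 8 libraries were HPS5 for PLAT (r = 0.992), CALR for PLAU (0.995), SLC17A9 for PLAUR (0.990), DNPEP for SERPINE2 (0.995), MTM1 for SERPINB2 (0.996), ALMS1 for SERPINF1 (0.998) and CHST3 for SERPINH1 (0.994). The next in line for SERPINB2 was AHR (0.994), the aryl hydrocarbon receptor, with means of 135, 213, 305 and 102 CPM in control, at 3 days, at 6 days and in MetaICM.

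Among the nearest expressed neighbours of the 7 genes, AP3M2, VCL, SERPINB7, GDPD5 and MAP6 were called in a comparison against control, and the others were not. Of all genes tested against control, 8.85% were called higher and 13.2% lower at 3 days, and 13.3% and 17.2% at 6 days. In MetaICM these shares were 7.41% and 8.99%. HMSD, beside SERPINB2, was tested only at 6 days and in MetaICM, each against control. IKBKB, 63.7 kb from PLAT, was called in none of the 6 comparisons, and AP3M2, 3.54 kb to the other side, was lower at 3 days (log2FC -0.60 ± 0.16, edgeR's adjusted p = 0.0154), a call at the cutoff that ended without control replicate 1 (-0.37), without either library of the 3-day condition (adjusted p = 0.0739 and 0.111), with library totals (-0.52), with the replicate block (-0.596), with every gene that has a count (-0.594) and at an adjusted p-value of 0.01. MRPL44 and CUL3 beside SERPINE2, and SMYD4 and WDR81 beside SERPINF1, were called in none either. GDPD5 and MAP6, on the 2 sides of SERPINH1, were both lower at 6 days (log2FC -1.34 ± 0.20 and -1.04 ± 0.26), where SERPINH1 was not called, and GDPD5 also at 3 days (-1.498 ± 0.234), where it was. VCL, 80.6 kb from PLAU, was lower at 3 and 6 days (-0.72 ± 0.13 and -1.01 ± 0.12), where PLAU was not called. In MetaICM, VCL exceeded 6 days (0.90) and 3 days (0.62), as PLAU did. GDPD5 and MAP6 exceeded 3 days (1.04 and 0.87), as SERPINH1 did, and 6 days (0.87 and 1.40), where SERPINH1 was not called. CADM4, 6.25 kb from PLAUR, exceeded 6 days (0.69, at 2.50 CPM or less) as PLAUR did, but was not called against 3 days. SERPINB7 exceeded 6 days (0.72), where SERPINB2 was lower.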

How the data were processed

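Factory RNA-Seq was run on 8 IMR90 libraries, 2 for each of 4 conditions. The authors aligned reads with STAR (2.6.0c, per the submitters' processing notes) to GRCh37 and deposited, per library, unnormalized counts of read pairs on the exons of RefSeq genes, obtained with featureCounts (1.6.3, per the file headers) without regard to strand, keeping pairs with both ends mapped and leaving out chimeric ones. Pairs that fit several genes were not counted, which lowers genes with overlapping exons, and intronic reads were not used here.

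Each pair of conditions was fitted alone (4 libraries) with edgeR (4.0.16, R 4.3.3): TMM scaling, filterByExpr at a count minimum of 10, the quasi-likelihood test and Benjamini-Hochberg adjustment. The SE of a log2FC was taken as its size over the square root of F. DESeq2 (1.42.0), other scalings and filters, all 8 libraries in one fit, a replicate block, an adjusted p-value of 0.01 and each library left out were alternatives. With a library left out, the lone library is assumed to vary like the other condition. Scripts were tested on simulated data.

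The 7 genes and the lists were chosen with earlier results of these data known. From each list, genes called in a comparison against control are named, at most 6, by size at 6 days. MMP2, MMP14, BMP1 and ADAMTS3 are named besides. Another gene, which stood in 2 lists, is not reported here and was left out of their counts, while the remaining genes that stand in 2 lists count in each. Similar genes are the 2 with the highest Pearson's r per gene, of which the first is named, and AHR besides; neighbours are the nearest gene on each side with at least 10 counts in 2 libraries. Positions are 1-based from the file headers' exons. Promoters are RefSeq's (GRCh38.p14).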

Additional observations from a re-analysis of the deposited data

Results flagged for a closer look

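In 3 genes, differences between the time points stood out in the direct test of 6 against 3 days of ICM, which is also the test of whether the effects against the shared control differ. The effect on PLAT was larger at 6 days, by 1.94 on the log2 scale, and that on SERPINB2 by 1.13. The effect on SERPINE2 was smaller at 6 days, by a log2 difference of -0.77. All 3 held when any library was left out.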

How the results depend on the processing

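The number of the 7 genes called stayed within 1.5 times in all 6 comparisons, under each of 9 other settings and with each library left out. Which genes were called could still change. Without control replicate 1, PLAT (log2FC 0.72) was called in place of SERPINH1 (-0.43) at 3 days against control. In MetaICM against control, PLAU (0.95) was then called in place of SERPINB2 (-0.34). Of 378 log2FC of these genes under the other settings, 375 kept their direction and their call. SERPINF1 between 6 and 3 days passed the cutoff with library totals (-0.63), and SERPINB2 in MetaICM against control lost its call at an adjusted p-value of 0.01. With a library left out, 144 of 168 kept both, and 7 changed sign. None of those that changed sign was called with all libraries: PLAU ranged from -0.44 to 0.26 at 3 days against control, from -0.38 to 0.28 at 6 days against control and from -0.11 to 0.19 between the time points, and SERPINH1 from -0.10 to 0.44 in MetaICM against control. Of the log2FC of pathway genes and neighbours, for which the same alternatives were added after seeing the data, 498 of 508 kept direction and call under the other settings and 205 of 228 with a library left out, without a change of sign. The cause was not tested. MMP2, MMP14, BMP1, ADAMTS3 and SERPINB8, and the neighbours in MetaICM against ICM, were not put through these alternatives.

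The count over all genes in MetaICM against control, 2609, fell to 1532 at an adjusted p-value of 0.01, and ranged from 1049 (without MetaICM replicate 2) to 4086 (without control replicate 1). At 3 days against control, 3456 became 2301 without replicate 1 of the 3-day condition.

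With the replicate number as a block, PLAU in MetaICM against control was called (log2FC 0.61, edgeR's adjusted p = 0.000364), which makes 4 genes instead of 3. The block changed no other call of the 7 genes. Deviations of libraries that share a number correlated between -0.16 and 0.27, so the number was not taken as a pairing. Genes under about 10 counts, such as PLG and SERPINF2, could not be compared at this depth, and 2 libraries per condition limit every SD given.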
